A study of Homo sapiens with 12 samples.

Results

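The genes described here are 45 genes of the G2 phase and of mitosis, a list of names drawn up from textbook roles with earlier results of these data known. They were read in RNA-seq libraries of MDA-MB-231 cells, a human line of mesenchymal type from a breast cancer that lacks hormone receptors and HER2 amplification. All 45 were among the 27412 genes with counts, and all 45 passed the filter on low counts, which left 14950 genes to test. Cells were plated as triplicate dishes and exposed for 24 h to both compounds together (BITC+ZA), to 1 µM ZA alone, to 2 µM BITC alone, or to vehicle, with 3 libraries in each of these 4 groups. The vehicle was 0.02% DMSO and 0.1% water. BITC is the usual abbreviation of benzyl isothiocyanate, an electrophile from cruciferous plants, and ZA of zoledronic acid, a nitrogen-containing bisphosphonate that inhibits farnesyl diphosphate synthase. The 12 libraries come from 1 cell line at 1 time and 1 dose of each compound, and the labels name triplicate dishes but no separate passages or days, so p-values measure the spread between these libraries, which may be technical.

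Cells enter mitosis when cyclin B binds and activates the kinase CDK1, and they leave it when the anaphase-promoting complex marks cyclin B and securin for destruction. In between, Polo-like and Aurora kinases, kinesin motors and microtubule-bundling proteins build the spindle, the kinetochore attaches chromosomes to it, and the spindle checkpoint delays anaphase until every chromosome is attached. Transcripts of these proteins accumulate together in G2 and fall after division, under MuvB complexes, which join the activators B-MYB and FOXM1 or, in arrested cells, form part of the DREAM repressor. In bulk RNA, fewer cells in G2 or mitosis and less of these transcripts per cell cannot be told apart.

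The libraries held 15874857 to 17375664 counts. The cells expressed VIM, CD44, AXL, CAV1 and KRT18 at 87.2 FPKM or more (FPKM is a read level scaled by gene length and depth), while ESR1 and CDH1 stayed at or below 0.143 FPKM, the leukocyte gene PTPRC at or below 0.0322 and the endothelial gene PECAM1 at or below 0.0569. ERBB2 and EPCAM, listed as low in this line, were present at 7.35 to 9.92 and 4.76 to 7.49 FPKM, and PGR, CDKN2A and ALB were not analysed here. Library 1 of the ZA group stood apart, with a mean chi-square per gene of 15.3 and 13.7 against ZA libraries 2 and 3, where the other pairs of one group had 2.23 to 3.73 over 12909 genes. The libraries also differed in their trend on the GC content of genes, given as the rank correlation of each gene's deviation from its mean with its GC content over 11028 genes. It was 0.303 to 0.467 in the BITC+ZA libraries, −0.494, 0.526 and 0.573 in ZA libraries 1 to 3, −0.586 to −0.206 in the BITC libraries and −0.299 to −0.0223 in the vehicle libraries. The same correlation with gene length was 0.0475 to 0.138 in BITC+ZA libraries and −0.134, −0.365 and −0.220 in ZA libraries 1 to 3. For length it was −0.0985 to 0.168 in BITC libraries and 0.147 to 0.262 in vehicle libraries. The GC trend touches the mitotic genes, whose transcripts had a median GC content of 43.2% (34.2 to 59.6%) against 48.2% for all genes tested, with 31 of the 45 below that median. Their median length was 4314 bases against 4617.5 for all genes tested. The longest were MKI67 (12807), CENPF (11690) and ASPM (10887), which carry results with ZA below. The part of length in those results was not tested apart from GC content. The mitochondrial share of counts, a sign of RNA quality and cell state, was 4.83 ± 0.0836% in BITC+ZA libraries, 4.25 ± 0.604% in ZA libraries (4.95% in library 1), 3.94 ± 0.136% in BITC libraries and 3.55 ± 0.061% in vehicle libraries (SD, n = 3 each), and its part in the results below was not tested.

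Promoters of such genes typically carry a cell cycle genes homology region (CHR), the element that MuvB complexes bind, a short distance downstream of CCAAT boxes bound by NF-Y. RefSeq promoter windows of GRCh38.p14, running from 250 bases before to 50 bases after each gene's start, were matched for 38 of the 45 genes. No window was matched for UBE2C, TPX2, TTK, FOXM1, BUB3, BIRC5 and AURKA. The letters TTTGAA, searched on both strands as the core CHR, were present in windows of 28 of the 38 genes (73.7%) and of 18.2% of all 27305 genes in the table. The letters CCAAT, also on both strands, were present in 32 of the 38 (84.2%) and in 39.7% of all genes, and 24 of the 38 held both. The share of single windows with TTTGAA, which counts each alternative start, was 31 of 48 (64.6%) for these genes and 15.2% of all 35116 windows. These matches are letters in a window and were not tested for binding, and no form of the CHR other than TTTGAA was searched. The windows of 4 genes are printed because their genes carry results below and differ in these letters. CCNB1 (chr5:69166900-69167199, plus strand) encodes the main mitotic cyclin, CCNB2 (chr15:59104896-59105195, plus strand) the second B-type cyclin, PLK1 (chr16:23678639-23678938, plus strand) the Polo-like kinase of mitotic entry, and MKI67 (chr10:128126374-128126673, minus strand) the chromosome surfactant Ki-67. Capitals mark TTTGAA and CCAAT in either orientation, and each sequence runs 5′ to 3′ on the gene's strand.
CCNB1: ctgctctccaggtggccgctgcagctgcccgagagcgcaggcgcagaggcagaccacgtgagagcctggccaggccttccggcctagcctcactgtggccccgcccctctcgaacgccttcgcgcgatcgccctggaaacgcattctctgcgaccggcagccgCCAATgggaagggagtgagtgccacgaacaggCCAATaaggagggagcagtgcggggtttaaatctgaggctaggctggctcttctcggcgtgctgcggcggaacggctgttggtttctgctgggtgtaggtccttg
CCNB2: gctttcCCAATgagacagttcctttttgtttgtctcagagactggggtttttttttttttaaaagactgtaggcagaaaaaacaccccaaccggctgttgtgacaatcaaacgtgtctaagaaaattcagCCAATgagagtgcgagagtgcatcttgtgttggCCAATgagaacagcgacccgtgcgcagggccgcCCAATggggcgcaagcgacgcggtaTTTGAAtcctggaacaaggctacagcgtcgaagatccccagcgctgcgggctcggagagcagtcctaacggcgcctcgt
PLK1: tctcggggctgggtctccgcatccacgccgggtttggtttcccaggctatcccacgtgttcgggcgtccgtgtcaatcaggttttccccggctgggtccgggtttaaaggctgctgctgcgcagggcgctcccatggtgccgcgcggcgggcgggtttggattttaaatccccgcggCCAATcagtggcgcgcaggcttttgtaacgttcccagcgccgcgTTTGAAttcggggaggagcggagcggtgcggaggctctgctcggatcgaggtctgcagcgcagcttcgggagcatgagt
MKI67: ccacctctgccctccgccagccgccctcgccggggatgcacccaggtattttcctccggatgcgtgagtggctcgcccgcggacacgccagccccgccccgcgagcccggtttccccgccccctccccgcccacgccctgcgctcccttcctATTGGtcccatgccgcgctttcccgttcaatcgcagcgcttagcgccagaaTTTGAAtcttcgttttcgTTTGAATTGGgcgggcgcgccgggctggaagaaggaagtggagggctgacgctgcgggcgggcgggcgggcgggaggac
In CCNB2 and PLK1 the single TTTGAA begins 29 bases before the gene's start, with the nearest CCAAT beginning at 54 bases in CCNB2 and 73 bases in PLK1. MKI67 holds TTTGAA at 47 and 29 bases before its start, the second sharing 1 base with a reverse CCAAT. CCNB1 holds CCAAT at 87 and 55 bases before its start and no TTTGAA in this window.

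The 45 genes covered a wide range of levels, compared here per length as mean FPKM over the 12 libraries. UBE2C, the E2 enzyme of the anaphase-promoting complex, stood highest at 210.3 FPKM, followed by the spindle assembly factor TPX2 (178), CCNB1 (174), the DNA-untangling topoisomerase TOP2A (164), and the cytokinetic scaffold ANLN and checkpoint target CDC20 (both 138). The lowest were the spindle pole protein HMMR at 7.2, the microtubule-binding NUSAP1 at 7.64 and PRC1, the midzone bundling protein, at 0.2. Group means of these neighbours overlapped: TPX2 averaged 180.3 ± 4.09 FPKM and CCNB1 167 ± 2.00 FPKM in vehicle libraries, whereas in BITC libraries they averaged 196 ± 5.62 and 196 ± 3.96 FPKM. PRC1 and NUSAP1 are uncertain, because 57.6% of PRC1's exonic bases and 62.2% of NUSAP1's are shared on the same strand with the GENCODE 29 genes AC068831.7 and AC087721.2. How reads from the shared exons were counted is not stated. AC068831.7 was listed at 6.43 to 11.2 CPM (CPM is a count scaled by depth with TMM normalisation), against 0.374 to 1.55 CPM for PRC1. AC087721.2, which overlaps NUSAP1, had a highest FPKM of 0. PRC1 had only 6 to 26 counts a library and stays in every count and median of the 45 genes. All other genes of the set had 327 to 19949 counts in every library.

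Together the 45 genes took 1.09 ± 0.00855% of all counts in BITC+ZA libraries, 1.06 ± 0.0509% in ZA libraries (1.12, 1.03 and 1.04%), 1.19 ± 0.0235% in BITC libraries and 1.11 ± 0.00586% in vehicle libraries (SD, n = 3 each). Every BITC library (1.17 to 1.21%) lay above every library of the other groups, the nearest of which were ZA library 1 and vehicle library 1 at 1.12%. Differences were tested gene by gene with edgeR's quasi-likelihood test over all 12 libraries, with a call where the Benjamini-Hochberg adjusted p over all 14950 genes was below 0.05. Of the 45 genes, 34 were called in at least 1 of the 6 pairwise comparisons. The other 11 were CDC25B, CDC25C, AURKA, INCENP, BIRC5, CDCA8, BUB3, CDCA3, CENPA, NUSAP1 and PRC1. The calls gathered in the comparisons that have BITC alone on one side, as the map of the genes by library shows.

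**Figure D1:**
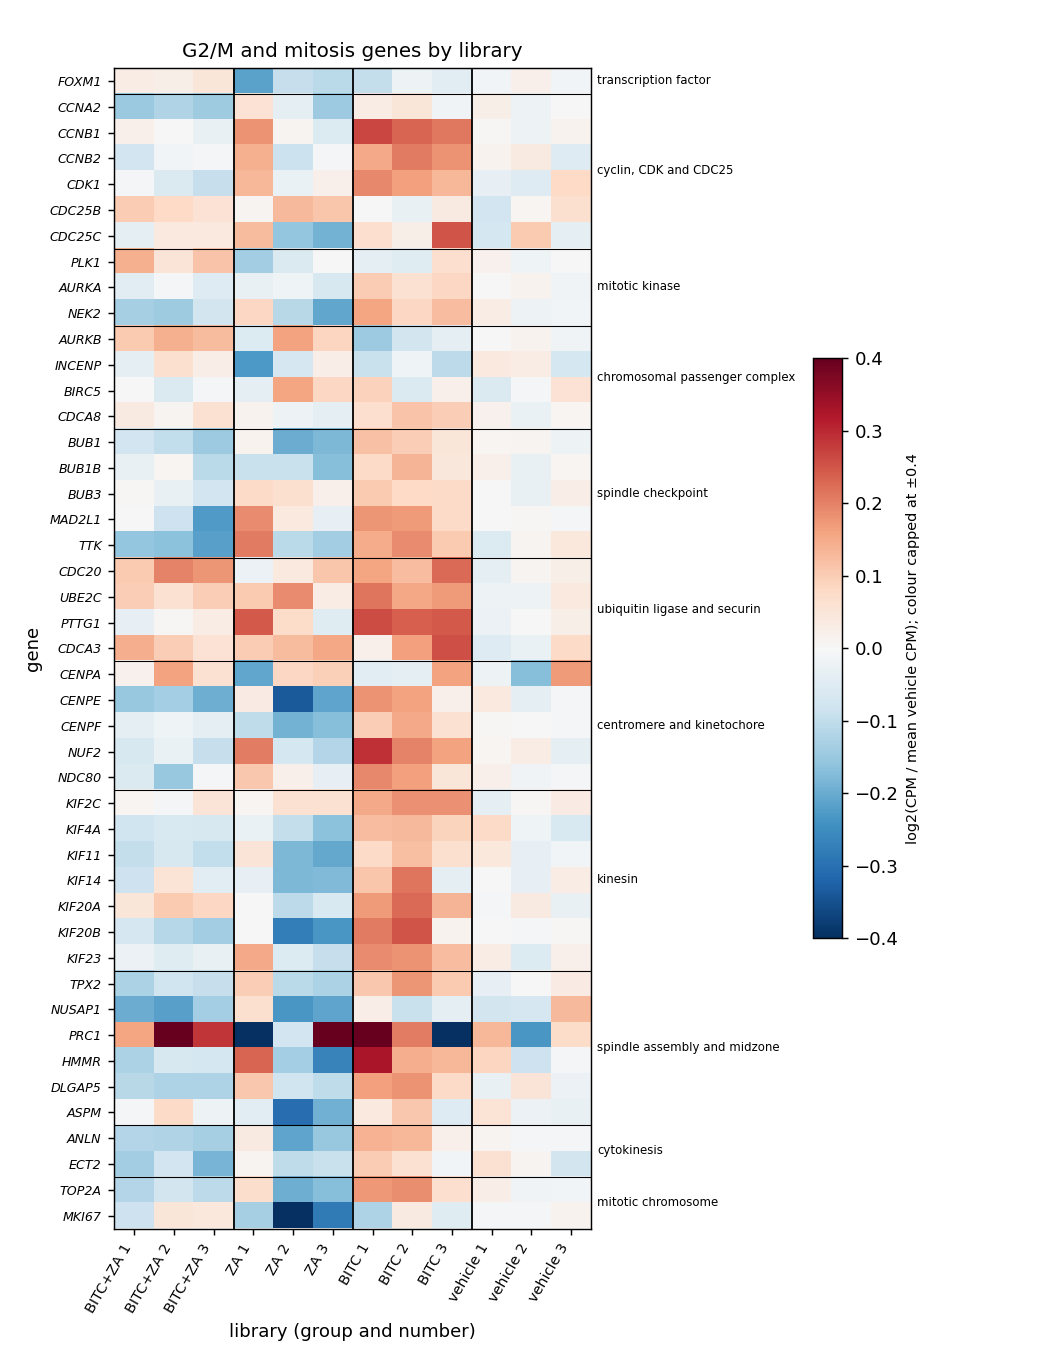
Log2 ratio of each gene's CPM to its mean in vehicle libraries (colour, capped at ±0.4), with the 45 genes down the page grouped by role and the 12 libraries across in their 4 groups. The BITC columns are red for most genes; the median gene's deviation from its mean over all libraries (log2) was 0.08 to 0.13 in BITC libraries and 0.05, −0.08 and −0.11 in ZA libraries 1 to 3.

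BITC alone against vehicle asks what the isothiocyanate did to the mitotic programme. With BITC 5 genes rose and none fell: CCNB1, the securin gene PTTG1, UBE2C, and the kinesins KIF2C (a microtubule depolymerase) and KIF20A (needed for cytokinesis). This was 5 of 45 (11.1%), where 0.776% of all genes tested were called higher and 1.00% lower. At an unadjusted p below 0.05 the test counted 22 of the 45 higher and 0 lower (7.29% and 8.02% of all genes tested), and DESeq2 called 6 higher and 0 lower (0.990% and 1.47% of all). The median log2 fold change was 0.11 for the 45 genes and 0.00 for all genes tested. All genes tested were also split by GC content into 4 bins of equal size, which held 18, 13, 10 and 4 of the 45. From the lowest to the highest GC bin, the median was 0.13, 0.09, 0.12 and −0.0007 for the 45 genes. For all genes tested it was 0.05, 0.03, −0.02 and −0.08. In 28 genes every BITC library exceeded every vehicle library (12.6% of all genes did) and in 2 every BITC library was below (12.6% of all).

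CCNB1 measured 517, 504 and 497 CPM in BITC libraries, against 430.5, 423 and 433 CPM in vehicle libraries. The groups did not overlap, and CCNB1 rose by 17.9% (log2 fold change 0.24, SE 0.05, adjusted p = 0.0072). PTTG1, which encodes the securin that holds separase inactive until anaphase, measured 252, 248 and 249 CPM in BITC libraries and 207, 210.1 and 214 CPM in vehicle libraries. It too rose without overlap, by 18.7% (0.25, SE 0.05, adjusted p = 0.0132). The other calls lay closer to the threshold. UBE2C measured 297, 286 and 289 CPM with BITC against 253, 253 and 264 CPM with vehicle (0.18, adjusted p = 0.0398). KIF20A measured 240.4, 250.2 and 235 CPM with BITC against 213, 219 and 209 CPM with vehicle (0.18, adjusted p = 0.0416), and KIF2C 191, 195 and 195 CPM with BITC against 167, 172 and 175 CPM with vehicle (0.17, adjusted p = 0.0465). Just short of a call were CDC20, the activator of the anaphase-promoting complex that the checkpoint holds back, at 299, 291 and 313 CPM with BITC against 261, 269.6 and 272 CPM with vehicle (0.17, adjusted p = 0.062), the kinetochore protein gene NUF2 (0.22, adjusted p = 0.0787) and CDK1 (0.16, adjusted p = 0.0936). By role, the medians were 0.17 for the 4 genes of the ubiquitin ligase and securin, 0.16 for the 7 kinesins, 0.14 for the 6 cyclin, CDK and CDC25 genes and 0.09 for the 5 checkpoint genes. The 4 genes of the chromosomal passenger complex, which corrects wrong attachments, had a median of −0.03, and its kinase gene AURKB had the most negative value of the 45 (−0.08, adjusted p = 0.477). FOXM1, the transcription factor that activates many of the others, measured 178, 188 and 185 CPM with BITC against 189, 193 and 189 CPM with vehicle and was not called (−0.05, adjusted p = 0.645).

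The number of calls changed with the fit, for the 45 genes and for all genes alike, and the cause was not tested. It was 20 higher without ZA library 1, a library of neither group (4.38% of all genes), 19 with only BITC and vehicle libraries in the fit (4.48%), and 10 after correcting each library for GC content and gene length (2.08%), where CCNB1 kept its call (0.17, adjusted p = 0.000217). No call survived the loss of every library in turn: CCNB1 was lost without BITC library 1 (0.0678) or vehicle library 2 (0.0646), PTTG1 without BITC library 1 or 2 or vehicle library 1 or 2 (adjusted p 0.0588 to 0.0875), and UBE2C, KIF2C and KIF20A without any library outside the ZA group (adjusted p 0.0653 to 0.219, 0.0708 to 0.22 and 0.0519 to 0.229).

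ZA alone against vehicle addressed the bisphosphonate by itself. MKI67, a marker of cycling cells, was the single gene called, and it fell. That is 1 of 45 (2.22%), where 0.355% of all genes tested were called higher and 0.709% lower, and the median log2 fold change was −0.04 for the 45 genes and 0.02 for all. No gene was called higher, with 2 higher and 10 lower at an unadjusted p below 0.05 (7.57% and 7.63% of all), and DESeq2 called 0 higher and 2 lower (0.916% and 1.92% of all). MKI67 measured 639, 529 and 576 CPM in ZA libraries, against 699, 698 and 708 CPM in vehicle libraries, without overlap (−0.27, SE 0.06, adjusted p = 0.0176). GC and length correction ended its call (−0.17, adjusted p = 0.126), as did leaving out ZA library 2 or any vehicle library (adjusted p 0.0742 to 0.128). In 1 of the 45 genes every ZA library lay above every vehicle library (7.27% of all genes tested) and in 7 every one lay below (9.14% of all). Other genes split by library. TTK, the checkpoint kinase MPS1, measured 129, 104 and 101 CPM with ZA against 108, 113 and 115 CPM with vehicle (−0.00, adjusted p = 0.985). In TTK, as in CCNB1 (486, 433 and 413 CPM) and PTTG1 (249.6, 221 and 204 CPM), ZA library 1 exceeded all 3 vehicle libraries, whereas the lower of the other ZA libraries lay below all of them. Without ZA library 1, 3 genes were called higher (BIRC5, CDC25B and UBE2C) and 12 lower (ANLN, ASPM, BUB1, CENPE, CENPF, KIF11, KIF14, KIF20B, MKI67, NEK2, TOP2A and TPX2), where 9.16% of all genes were called higher and 7.14% lower. GC and length correction with all libraries gave BUB3 higher and FOXM1, INCENP and PLK1 lower, where 0.990% of all genes were called higher and 1.45% lower.

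BITC+ZA against vehicle gave 1 call in this set. CDC20 rose (288, 307 and 302 CPM with both compounds against 261, 269.6 and 272 CPM with vehicle; 0.16, SE 0.05, adjusted p = 0.0454), and no gene fell. This was 1 of 45 (2.22%), where 2.48% of all genes tested were called higher and 2.41% lower, with medians of −0.03 for the 45 genes and −0.00 for all. At an unadjusted p below 0.05 there were 3 higher and 7 lower (9.75% and 10.7% of all genes). DESeq2 called 1 higher and 0 lower (2.64% and 2.74% of all). The shares called by either test lie near or below those of all genes, whereas the 7 lower at the unadjusted p lie above theirs. CCNB1 measured 435, 429 and 420.4 CPM with both compounds against 430.5, 423 and 433 CPM with vehicle, and the groups overlapped (−0.00, adjusted p = 0.986). TTK (98.6 ± 2.27 CPM with both compounds and 112 ± 3.76 CPM with vehicle; −0.18, adjusted p = 0.123) and TPX2 (607 ± 10.3 and 651 ± 14.9; −0.10, adjusted p = 0.256) did not overlap between groups and were not called (SD, n = 3 each). GC and length correction ended the call of CDC20 (0.09, adjusted p = 0.144), as did leaving out any library outside the ZA group (adjusted p 0.0504 to 0.208). In 7 genes every BITC+ZA library lay above every vehicle library (15.6% of all genes tested) and in 14 every one lay below (17.2% of all). With only these 2 groups in the fit, 4 genes were called higher (AURKB, CDC20, PLK1 and UBE2C) and 11 lower, where 9.27% of all genes were called higher and 10.1% lower. Without ZA library 1, a library of neither group, 2 were called higher and 9 lower (6.31% and 8.31% of all).

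**Figure D2:**
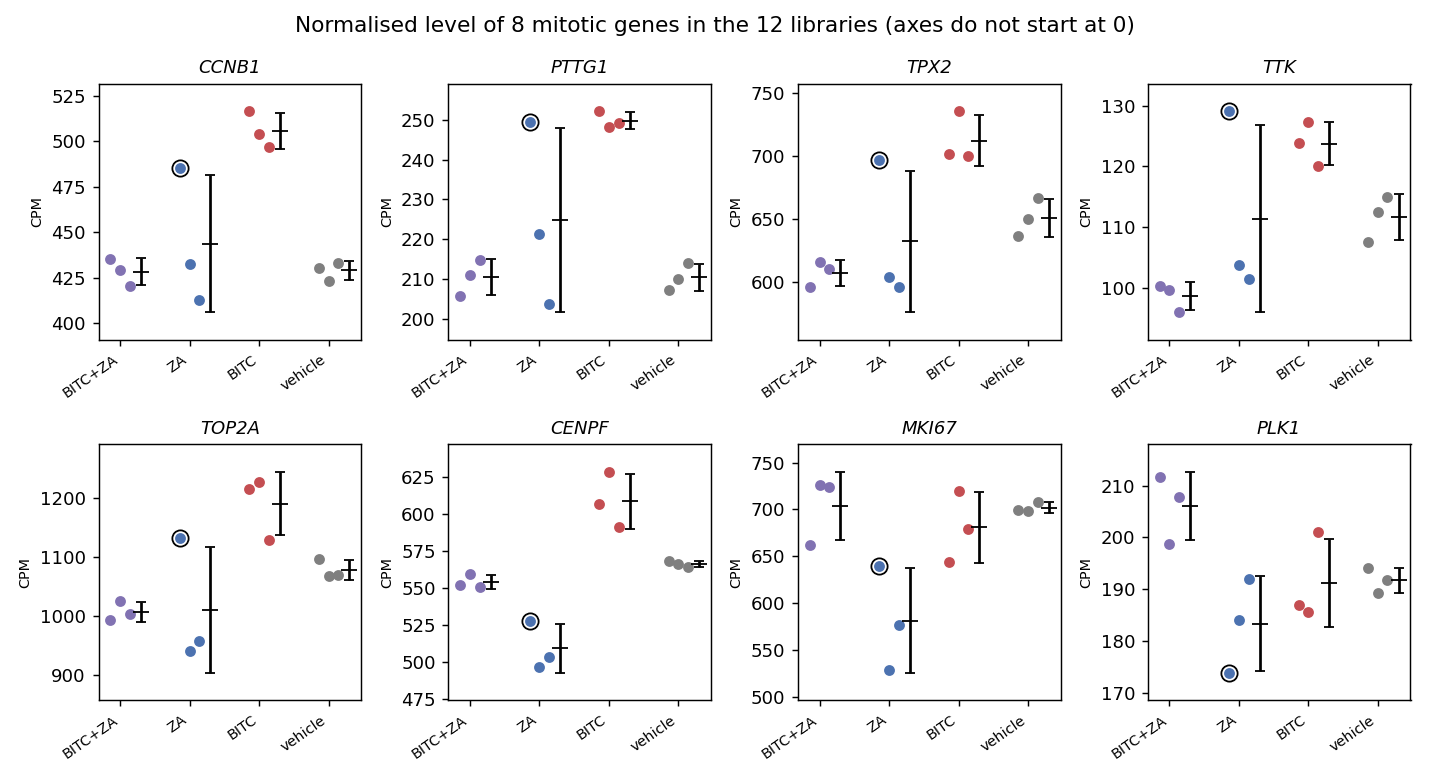
CPM of 8 genes in each of the 12 libraries, with both compounds, ZA, BITC and vehicle from left to right; points are libraries, the bar to the right of each group is the mean ± SD (n = 3), a black ring marks ZA library 1, and axes do not start at 0. CCNB1, PTTG1, TPX2 and TOP2A were higher in every BITC library than in every BITC+ZA and vehicle library, MKI67 was lower in every ZA library than in every other library, and PLK1 was higher in every BITC+ZA library than in every vehicle library.

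Adding ZA to BITC, the comparison of BITC+ZA with BITC, gave the broadest difference in the set: 24 genes fell and 1 rose. The genes that fell span every stage of mitosis, from the cyclins and CDK1 through the checkpoint, kinetochore and spindle to cytokinesis. They are 53.3% of the 45, where 8.15% of all genes tested were called lower and 6.60% higher, and the median log2 fold change was −0.15 for the 45 genes and 0.00 for all. In 31 genes every BITC+ZA library lay below every BITC library (19.6% of all genes did) and in 3 every one lay above (18.4% of all). The changes were small, none of the called ones passing 20.3%.

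Of the cyclin, CDK and CDC25 genes, 4 of 6 fell. CCNB1 measured 435, 429 and 420.4 CPM with both compounds against 517, 504 and 497 CPM with BITC, so that the highest library with both lay well below the lowest with BITC, and it fell by 15.3% (−0.24, SE 0.05, adjusted p = 0.00403). CDK1, the kinase that cyclin B activates, measured 247, 238 and 233 CPM with both against 284, 278 and 272 CPM with BITC (−0.22, SE 0.05, adjusted p = 0.00683). CCNB2 fell as well (112, 117 and 118 CPM with both against 131, 136 and 134 CPM with BITC; −0.21, adjusted p = 0.0151), and so did CCNA2, the cyclin of S phase and G2 (235, 240.0 and 236 CPM with both against 266, 269.9 and 258 CPM with BITC; −0.16, adjusted p = 0.0298). The phosphatase genes that activate CDK1, CDC25B (0.08, adjusted p = 0.287) and CDC25C (−0.10, adjusted p = 0.441), were not called.

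Among the kinases, NEK2, which separates the centrosomes, fell (93.0, 92.3 and 97.0 CPM with both against 114, 108 and 111 CPM with BITC; −0.24, SE 0.06, adjusted p = 0.0123). PLK1 and AURKA, which drive entry and spindle pole assembly, were not called and had opposite signs (0.11, adjusted p = 0.138, and −0.12, adjusted p = 0.0615). AURKB was the one gene that rose, measuring 126, 129 and 128 CPM with both compounds against 106, 111 and 114 CPM with BITC without overlap (0.21, SE 0.05, adjusted p = 0.0145). Its partners in the passenger complex, INCENP (0.09, adjusted p = 0.32), BIRC5 (−0.04, adjusted p = 0.644) and CDCA8 (−0.06, adjusted p = 0.436), were not called. FOXM1 was not called either, at 194, 193 and 197 CPM with both against 178, 188 and 185 CPM with BITC (0.09, adjusted p = 0.221), although every library with both compounds exceeded every one with BITC.

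Of the 5 spindle checkpoint genes 3 fell. TTK, which starts checkpoint signalling, measured 100.2, 99.6 and 96.0 CPM with both against 124, 127 and 120.1 CPM with BITC and had the largest fall of the called genes, 20.3% (−0.33, SE 0.07, adjusted p = 0.00408). MAD2L1, which encodes the MAD2 protein that captures CDC20, measured 164, 155 and 141 CPM with both against 186, 185 and 174 CPM with BITC (−0.24, SE 0.06, adjusted p = 0.00893). BUB1 also fell (379, 373 and 361 CPM with both against 434, 427 and 413 CPM with BITC; −0.20, adjusted p = 0.0122). BUB1B (−0.13, adjusted p = 0.0926) and BUB3 (−0.12, adjusted p = 0.0538) lay below in every library without a call. Of the ubiquitin ligase and securin genes, PTTG1 fell (206, 211 and 215 CPM with both against 252, 248 and 249 CPM with BITC; −0.25, SE 0.05, adjusted p = 0.00554). CDC20 had nearly the same level with both compounds (299 ± 10.1 CPM) and with BITC (301 ± 10.9 CPM; −0.01, adjusted p = 0.929), and UBE2C (−0.09, adjusted p = 0.163) and CDCA3 (−0.05, adjusted p = 0.614) were not called.

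At the kinetochore 4 of 5 genes fell. NUF2 and NDC80, subunits of the complex that grips microtubule ends, measured 114, 117 and 112 CPM and 123, 115 and 127 CPM with both compounds, against 146, 137 and 133 CPM and 146, 143 and 132 CPM with BITC (−0.28, adjusted p = 0.00682, and −0.21, adjusted p = 0.0145). CENPE, a kinesin that carries chromosomes to the spindle equator, and CENPF, a large kinetochore protein, are both farnesylated proteins. CENPE fell (151, 153 and 147 CPM with both against 190.2, 188 and 170.3 CPM with BITC; −0.28, SE 0.07, adjusted p = 0.008), and so did CENPF (552, 559.9 and 551 CPM against 607, 628 and 591 CPM; −0.14, SE 0.04, adjusted p = 0.0313). CENPA, the centromeric histone, did not pass the test (0.05, adjusted p = 0.748). Of the kinesins 5 of 7 fell: KIF20B, KIF23, KIF4A, KIF2C and KIF11, with log2 fold changes of −0.27 to −0.15 and adjusted p of 0.00796 to 0.0312. KIF11, the motor that pushes spindle poles apart, measured 256, 261 and 255 CPM with both against 288, 297 and 286 CPM with BITC. KIF20B measured 195, 189 and 186 CPM with both against 236, 244 and 207 CPM with BITC, and KIF23, which bundles microtubules at the midzone, 224, 219.9 and 222 CPM with both against 259, 257 and 248 CPM with BITC. KIF4A measured 127, 129 and 129 CPM with both against 147, 147 and 143 CPM with BITC, and KIF2C 172, 171 and 178 CPM with both against 191, 195 and 195 CPM with BITC.

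Among spindle assembly genes TPX2, DLGAP5 and HMMR fell. TPX2, the activator of Aurora A, measured 596, 616 and 610.0 CPM with both against 701, 735 and 699.6 CPM with BITC (−0.23, SE 0.05, adjusted p = 0.00534), and DLGAP5, which stabilises kinetochore fibres, measured 213, 211 and 211 CPM against 258, 260.3 and 243 CPM (−0.26, SE 0.05, adjusted p = 0.00374). Both were separated by more than the spread within either group. HMMR, expressed lower, fell with a wide error (26.0, 27.1 and 27.0 CPM with both against 35.6, 31.4 and 31.1 CPM with BITC; −0.29, SE 0.10, adjusted p = 0.044), and ASPM, NUSAP1 and PRC1 were not called. Both cytokinesis genes fell: ANLN (794, 791 and 784 CPM with both against 946, 944 and 873 CPM with BITC; −0.22, SE 0.05, adjusted p = 0.00644) and ECT2, the activator of RhoA at the cleavage furrow (303, 317 and 293 CPM with both against 358, 348 and 331 CPM with BITC; −0.19, adjusted p = 0.0148). TOP2A fell (993, 1025 and 1003 CPM with both against 1215, 1226 and 1129 CPM with BITC; −0.24, SE 0.05, adjusted p = 0.00562), whereas MKI67 overlapped (662, 726 and 723 CPM against 644, 719.8 and 679 CPM; 0.05, adjusted p = 0.606).

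**Figure D3:**
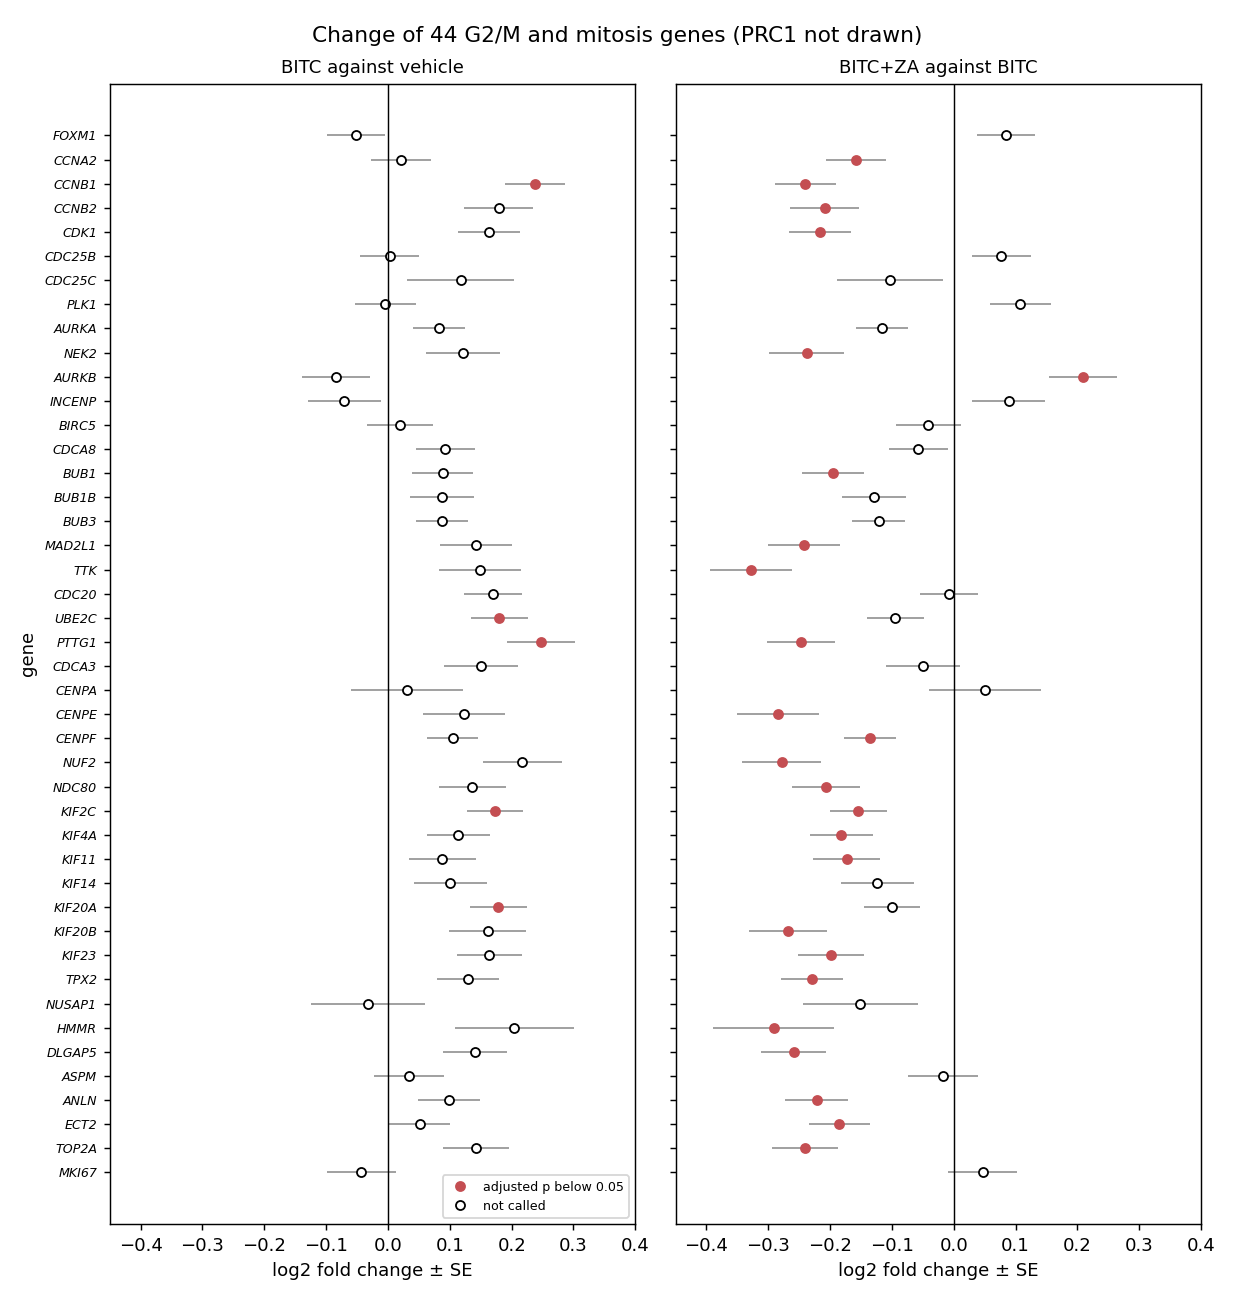
Log2 fold change ± SE of 44 of the genes (PRC1 is not drawn) for BITC against vehicle on the left and BITC+ZA against BITC on the right; filled points are called. Most genes lie right of 0 in the left panel (39 of all 45 are positive) and left of 0 in the right panel (37 of all 45 are negative); the BITC libraries enter both panels, so the panels are not independent.

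Of these calls 7 held when any single library was left out: CCNB1, TTK, PTTG1, TPX2, DLGAP5, ANLN and TOP2A. Over the omissions the number of calls was 9 without BITC library 1 (3.43% of all genes were called), 11 without BITC library 2 (5.18%), 16 without BITC+ZA library 2 (7.29%), 11 without BITC+ZA library 3 (3.95%) and 18 to 32 for the others (7.12 to 26.9%).

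The fall was graded by GC content. All genes tested were split by GC content into 4 bins of equal size. Among the 18 mitotic genes in the lowest bin (up to 42.0% GC), 15 were called lower in BITC+ZA against BITC libraries, where 19.1% of all genes in that bin were. In the second bin 7 of 13 were called lower against 10.3% of all, in the third 2 of 10 against 2.70%, and in the highest 0 of 4 against 0.535%. From low to high GC content, the median log2 fold change was −0.23, −0.16, −0.05 and 0.08 for these genes and −0.13, −0.06, 0.06 and 0.17 for all genes tested. Over the 45 genes Spearman's rho between GC content and log2 fold change was 0.718, given as a description because the genes share libraries. After each library was corrected for GC content and length it was 0.219, and 15 genes were called lower and 1 higher (5.73% and 3.53% of all genes tested), with a median of −0.07. Of the 24 lower calls 14 remained, and so did AURKB (0.14, adjusted p = 0.024). Among those that remained were PTTG1 (−0.21, adjusted p = 0.00227), TPX2 (−0.16, adjusted p = 0.0018), TTK (−0.21, adjusted p = 0.00292), CENPE (−0.17, adjusted p = 0.00328) and CCNB1 (−0.12, adjusted p = 0.00908). CCNA2 (−0.03, adjusted p = 0.676), KIF11 (−0.04, adjusted p = 0.522), CDK1 (−0.06, adjusted p = 0.323), NDC80, ECT2, CENPF, HMMR, NEK2, CCNB2 and NUF2 were no longer called, and CDC20 was called lower (−0.11, adjusted p = 0.0417).

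**Figure D4:**
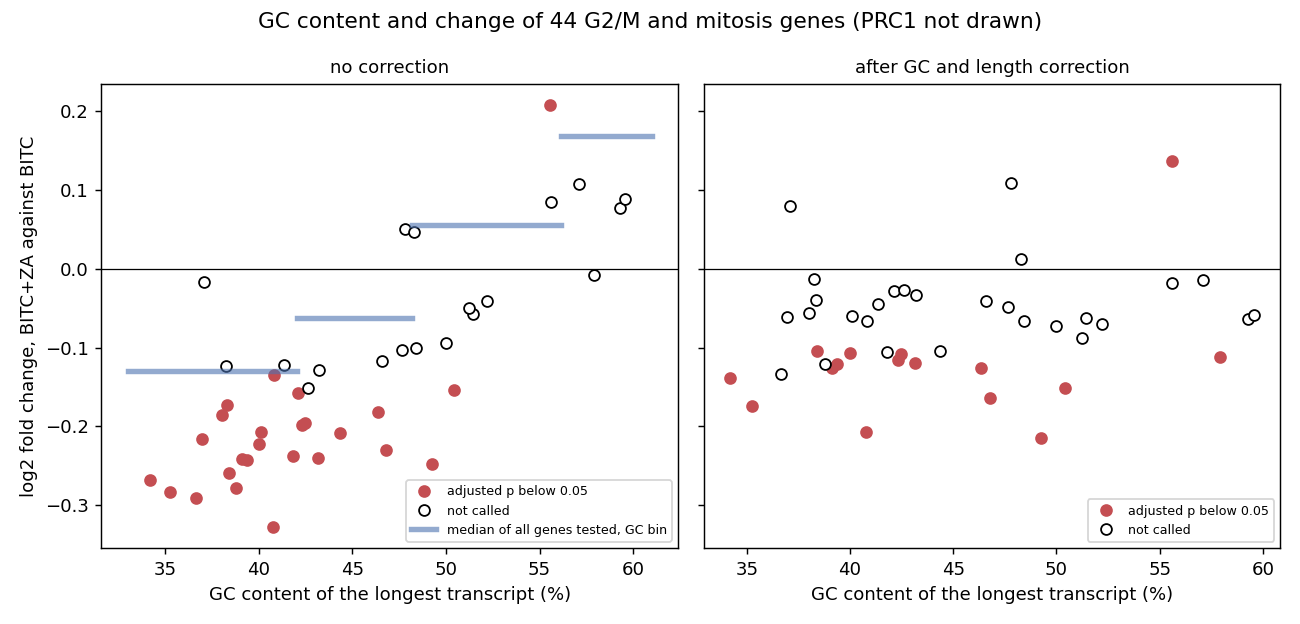
Log2 fold change of BITC+ZA against BITC for 44 of the genes (PRC1 is not drawn) by GC content of the longest transcript, without correction on the left and after GC and length correction on the right; filled points are called and blue bars are the median of all genes tested in each GC bin. Genes of low GC content fell most on the left (rho 0.718 over all 45), and the slope is flatter on the right (rho 0.219).

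Calls were counted in genes with and without TTTGAA in a window, and the difference between these counts was not tested. Of the 28 genes with TTTGAA in a window 15 fell in BITC+ZA against BITC libraries (median −0.16), as did 7 of the 10 without it (median −0.18) and 2 of the 7 with no matched window (median −0.12). CCNB2, with 1 TTTGAA and 4 CCAAT, and CCNB1, with CCAAT and no TTTGAA, both fell, whereas PLK1 and MKI67, each with TTTGAA and CCAAT, did not. In BITC against vehicle libraries, 0 of the 28 genes with TTTGAA and 4 of the 10 without it were called, with medians of 0.11 and 0.12.

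Other genes of the cell cycle, in 9 lists drawn up by function, are read against the 8.15% of all genes tested that were called lower and the 6.60% called higher in BITC+ZA against BITC libraries. Of 18 condensin and cohesin genes 8 fell and none rose, led by the cohesin genes RAD21 (−0.25, adjusted p = 0.00357) and SMC3 (−0.23, adjusted p = 0.0077). Of 37 further centromere and kinetochore genes 10 fell and 2 rose, including CENPQ (−0.47, adjusted p = 0.00436) and SGO2, the shugoshin that protects centromeric cohesion (−0.28, adjusted p = 0.00436). Of 28 further regulators of mitotic entry and exit 9 fell and none rose, including FBXO5, the inhibitor of the anaphase-promoting complex (−0.29, adjusted p = 0.00907), and the checkpoint kinase gene CHEK1 (−0.25, adjusted p = 0.00766). Of 26 other spindle and centrosome genes 8 fell and 6 rose, among them the kinesin KIF18B, which rose (0.40, adjusted p = 0.000825), and HAUS1, which fell (−0.39, adjusted p = 0.00403). Of 13 further cytokinesis genes 5 fell and 2 rose, and of 17 anaphase-promoting complex genes 3 fell and 2 rose. Of 29 replication genes of S phase 8 fell and 2 rose, of 14 DREAM and MuvB components 3 fell (LIN54, LIN9 and RBBP4), and of 19 G1/S genes 2 rose, one of them CDKN1A, the CDK inhibitor p21 (0.27, adjusted p = 0.0134). The share that fell was 44.4% for condensin and cohesin and 17.6 to 38.5% for the other lists with any fall. The share that rose was 23.1% for other spindle and centrosome genes. Counts of 2 genes that rose, 5.41 to 15.4% of their lists, lie on both sides of 6.60%. No counts by GC content or after its correction are given for these lists. Of all genes in the lowest GC bin 19.1% were called lower here, and in the highest bin 16.3% were called higher. The list medians ran from −0.15 for condensin and cohesin to 0.04 for G1/S genes. In BITC against vehicle libraries a single gene of the 9 lists was called, 1 of the 29 S-phase genes, which was higher. Of all genes tested 0.776% were called higher and 1.00% lower there. The list medians there ran from 0.00 for G1/S genes to 0.11 for the further centromere and kinetochore genes, against 0.00 for all genes.

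ZA against BITC compared the single compounds, and 18 genes were lower with ZA while none was higher. This was 40.0% of the 45, where 4.44% of all genes tested were called lower and 6.11% higher, with medians of −0.15 for the 45 genes and 0.00 for all. At an unadjusted p below 0.05 there were 1 higher and 30 lower (14.3% and 12.3% of all), and DESeq2 called 0 higher and 21 lower (6.99% and 5.0% of all). In 16 genes every ZA library lay below every BITC library (10.7% of all genes did) and in 0 every one lay above (10.4% of all). CENPF measured 528, 497 and 504 CPM with ZA against 607, 628 and 591 CPM with BITC (−0.26, SE 0.04, adjusted p = 0.000499). KIF20A measured 214, 199 and 205 CPM against 240.4, 250.2 and 235 CPM (−0.23, SE 0.05, adjusted p = 0.00271), and KIF20B, a kinesin of late mitosis, 205, 169 and 174 CPM against 236, 244 and 207 CPM (−0.33, SE 0.06, adjusted p = 0.00247). In these 3 genes alone the call held when any single library was left out, and in all 3 the groups were separate. The other 15 were CCNB1, NEK2, BUB1, BUB1B, CENPE, NUF2, KIF4A, KIF11, KIF14, TPX2, DLGAP5, ASPM, ANLN, TOP2A and MKI67, with log2 fold changes of −0.29 to −0.16. Several of them, such as TOP2A (1132, 940.4 and 958 CPM with ZA against 1215, 1226 and 1129 CPM with BITC; −0.24, adjusted p = 0.00626), overlapped between groups through ZA library 1. The number called lower was 32 without ZA library 1 (13.9% of all genes), 5 without ZA library 2 (1.07%), 4 without ZA library 3 (1.99%), 5 without BITC library 1 (1.56%) and 3 without BITC library 2 (0.989%). It was 25 after GC and length correction (5.23% of all genes) and 1 (CENPF) with only these 2 groups in the fit (0.365%). BITC and ZA libraries also differed in the GC and length trends given above. From the lowest to the highest GC bin, the median log2 fold change was −0.20, −0.16, −0.10 and −0.04 for the 45 genes. For all genes tested it was −0.09, −0.06, 0.03 and 0.17.

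Adding BITC to ZA, the comparison of BITC+ZA with ZA, gave 4 genes that rose and none that fell: MKI67, FOXM1, PLK1 and ASPM, a spindle pole protein. That is 8.89% of the 45, where 3.31% of all genes tested were called higher and 3.64% lower, with medians of −0.01 for the 45 genes and −0.01 for all. At an unadjusted p below 0.05 there were 7 higher and 3 lower (10.1% and 11.9% of all), and DESeq2 called 6 higher and 0 lower (3.53% and 3.91% of all). MKI67 measured 662, 726 and 723 CPM with both compounds against 639, 529 and 576 CPM with ZA (0.28, SE 0.06, adjusted p = 0.00367), and its call held without any single library. FOXM1 measured 194, 193 and 197 CPM with both against 164, 178 and 177 CPM with ZA (0.17, SE 0.05, adjusted p = 0.0266). PLK1 measured 212, 199 and 208 CPM against 174, 184 and 192 CPM (0.17, SE 0.05, adjusted p = 0.0379), and ASPM 242, 257 and 240.1 CPM against 236, 197 and 213 CPM (0.19, SE 0.06, adjusted p = 0.0367). All 4 were without overlap, as were 6 of the 45 above (11.4% of all genes tested) and 3 below (12.3% of all), and all 4 were called after GC and length correction too. FOXM1 was lost without any BITC+ZA library (adjusted p 0.0822 to 0.112), and PLK1 and ASPM without several libraries (adjusted p 0.0565 to 0.156 and 0.0527 to 0.181). Without ZA library 1, 8 genes were called higher and 1 lower (4.96% and 7.74% of all).

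The interaction asks whether ZA acted differently with and without BITC: it is the log2 change with ZA in the presence of BITC minus the change with ZA alone. The test called 4 genes with a negative interaction (PTTG1, CCNB1, MAD2L1 and CDK1) and MKI67 with a positive one, 8.89% and 2.22% of the 45, where 1.53% of all genes tested were called negative and 1.31% positive. For PTTG1 the change with ZA was −0.25 in the presence of BITC and 0.10 without it, a difference of −0.34, SE 0.08, adjusted p = 0.0154. For CCNB1 the changes were −0.24 and 0.05 (−0.29, SE 0.07, adjusted p = 0.0233), for MAD2L1 −0.24 and 0.07 (−0.31, SE 0.08, adjusted p = 0.0381), and for CDK1 −0.22 and 0.04 (−0.26, SE 0.07, adjusted p = 0.0423). MKI67 went the other way, with 0.05 in the presence of BITC and −0.27 without it (0.32, SE 0.08, adjusted p = 0.0285). After GC and length correction PTTG1 (−0.25, adjusted p = 0.0186) and MAD2L1 (−0.23, adjusted p = 0.0117) were still called, and CCNB1 (−0.14, adjusted p = 0.0636), CDK1 (−0.11, adjusted p = 0.223) and MKI67 (0.18, adjusted p = 0.223) were not. Each of the 5 calls was lost without at least 3 of the libraries outside the ZA group (adjusted p up to 0.147). Without ZA library 1, 10 genes were called with a negative interaction and 3 with a positive one (3.09% and 2.50% of all genes).

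The authors' deposited table of each pairwise comparison came from a fit with DESeq2, per the submitters' processing notes, and its counts differ from those above. Shares of all genes are over those with an adjusted p in the same table. That base is 24775 to 25119 genes, wider than the 14950 tested above, so these shares are not directly comparable with those above. At an adjusted p below 0.05 the authors' deposited table for BITC+ZA against BITC calls 1 of the 45 genes higher and 28 lower (5.04% and 6.59% of all). The authors' deposited table for ZA against BITC calls 0 and 8 (1.48% and 0.916%), and that for BITC+ZA against ZA 1 and 0 (0.837% and 0.749%). Against vehicle, the authors' deposited tables call 18 higher and 0 lower for BITC (1.70% and 2.03%), 0 and 1 for ZA (0.0766% and 0.318%), and 3 and 10 for BITC+ZA (2.81% and 3.96%).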

How the data were processed

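RNA of MDA-MB-231 cells was sequenced in 12 libraries, 3 in each of the groups BITC+ZA, ZA, BITC and vehicle, grouped by the treatment labels. HISAT2, DESeq2 1.20.0 and the genome build GRCh38 are named in the submitters' processing notes. For the counter, annotation release and strand setting, nothing is stated in the sources used here, so reads from genes that overlap cannot be assigned with certainty. The authors deposited 6 tables, 1 per pairwise comparison, with a raw count per gene and library, a normalised signal (counts divided by size factors), FPKM, gene length (in bases), and their own log2 fold change and p-value, per the file headers. The count columns were joined over the 6 tables, which held 0 conflicting values; 4593 values missing for a gene in a table were entered as 0, and none of them had an FPKM above 0.

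Counts were fitted with edgeR 4.0.16 in R 4.3.3 (TMM normalisation, filterByExpr, robust quasi-likelihood F test, two-sided) in 1 model of the 4 groups with 8 residual degrees of freedom. The 14950 genes tested hold 99.9% of counts, with a common biological coefficient of variation of 0.0607. P-values were adjusted by Benjamini-Hochberg over all genes tested and called below 0.05. The SE was taken as the absolute log2 fold change over √F. Levels within a gene are normalised CPM and levels between genes FPKM. GC content came from the longest GENCODE 29 transcript. The correction for GC content and length removed a loess trend from each library. The main fit was tried on simulated counts, only in the comparisons of a treatment with vehicle. Those counts held no GC or length trend and no outlying library, so they do not speak to these features. Alternatives were RLE size factors, DESeq2 1.42.0, no filter, a mean FPKM of at least 5, a non-robust fit, limma 3.58.1 on log2(FPKM + 1) and log2(FPKM + 0.1), only the groups compared, a replicate block, GC and length correction, and leaving out each library. GC and length correction without ZA library 1 was added after seeing the data.

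The 45 genes and the 9 lists of other cell cycle genes were chosen with earlier results of these data known. Every one of the 45 is named, with values in every library for those the results turn on and fold changes, ranges or counts for the others. A marker gene is not reported here. Of each list at most 3 genes with the smallest p are named. Replicate numbers did not pair the libraries: deviations of same-numbered libraries from their group means correlated from −0.202 to 0.162 over 11029 genes.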

Additional observations from a re-analysis of the deposited data

Results flagged for a closer look

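For 5 genes the change with ZA in the presence of BITC differed from the change with ZA alone by the interaction term of edgeR's quasi-likelihood test, Benjamini-Hochberg adjusted over all genes tested. The difference, on the log2 scale, was −0.34 for PTTG1, the securin gene, −0.31 for MAD2L1 of the spindle checkpoint, −0.29 for cyclin B1 (CCNB1), −0.26 for its kinase CDK1, and 0.32 for MKI67. In CCNB1, CDK1, MAD2L1 and PTTG1 the libraries with both compounds lay below those with BITC in 3 of 3 libraries, while among ZA libraries the first was the highest. Without ZA library 1 the 5 differences were called again: PTTG1 −0.27, adjusted p = 0.00105, MAD2L1 −0.25, adjusted p = 0.01, CCNB1 −0.22, adjusted p = 0.00167, CDK1 −0.22, adjusted p = 0.00996 and MKI67 0.39, adjusted p = 8.29e-06. After GC and length correction PTTG1 and MAD2L1 kept their calls, and CCNB1, CDK1 and MKI67 did not. Of the 5, 0 were called by limma, without BITC library 1, or without vehicle library 1 or 2.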

How the results depend on the processing

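Counts of called genes are given out of the 45 in both directions together, and the cause of a changed count was not tested. The pairs in brackets are the calls over all genes tested, higher and then lower. In the fits with such pairs 14242 to 15275 genes were tested, but 7112 with the FPKM filter and 27412 with no filter. For BITC+ZA against BITC 25 were called (987 and 1218). It was 16 after GC and length correction (528 and 857) and 14 with that correction and a replicate block (540 and 816). For ZA against BITC 18 were called (913 and 664), and 31 after the correction without ZA library 1 (1168 and 1380). By limma on log2(FPKM + 1) it was 11 (393 and 380), and with only the groups compared 1 (129 and 52). For BITC against vehicle 5 were called (116 and 150), 10 after the correction (311 and 344) and 9 with correction and block (285 and 312). It was 14 with correction and without ZA library 1 (648 and 602), and 19 with only the groups compared (641 and 756). Limma called 0 with a pseudocount of 0.1 (55 and 61) and 1 with a pseudocount of 1 (56 and 61). For ZA against vehicle 1 was called (53 and 106), 2 by DESeq2 (137 and 287) and 2 among genes of at least 5 FPKM (58 and 139). It was 4 after the correction (148 and 217), 3 with correction and block (125 and 190), and 12 with correction and without ZA library 1 (476 and 525). It was 0 by limma with either pseudocount (1 and 0 each) or with only the groups compared (1 and 0). For BITC+ZA against vehicle 1 was called (371 and 361), and 0 after the correction with the block (495 and 627) or without it (520 and 664). Limma called 0 with pseudocounts of 0.1 (212 and 422) and 1 (233 and 429), as did the fits with no filter (471 and 443) and non-robust (357 and 340). It was 3 with correction and without ZA library 1 (714 and 991), and 15 with only the groups compared (1338 and 1455). For BITC+ZA against ZA 4 were called (495 and 544), 7 among genes of at least 5 FPKM (469 and 297) and 8 after the correction (700 and 897). It was 10 with correction and without ZA library 1 (750 and 932), and 1 with only the groups compared (164 and 65). Limma called 2 with a pseudocount of 0.1 (241 and 370) and 2 with a pseudocount of 1 (249 and 366). For the interaction 5 were called (196 and 229), 11 by DESeq2 (298 and 386) and 3 with correction and block (192 and 358). It was 8 with no filter (284 and 422) and 3 in the non-robust fit (178 and 193). Limma called 0 with pseudocounts of 0.1 (2 and 2) and 1 (3 and 5). Leaving out 1 library at a time gave 9 to 32 for BITC+ZA against BITC (3.43 to 26.9% of all genes called). It gave 3 to 34 for ZA against BITC (2.49 to 29.6%), 0 to 20 for BITC against vehicle (0.667 to 9.79%) and 0 to 15 for ZA against vehicle (0.00655 to 16.3%). It gave 0 to 11 for BITC+ZA against vehicle (1.89 to 14.6%), 1 to 9 for BITC+ZA against ZA (2.41 to 12.7%) and 0 to 13 for the interaction (0.627 to 6.03%).

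The replicate block alone, on numbers that did not pair the libraries, gave 27, 19, 7, 1, 1, 5 and 7 calls. The order is that of the comparisons in the omissions above, and the block ended no call. Over all genes its pairs were 1138 and 1395, 1003 and 782, 135 and 180, 75 and 144, 403 and 439, 541 and 620, and 247 and 316. RLE size factors changed no call. In 3 genes that were not called, the fold changed sign and passed the threshold after correction and without ZA library 1: CDC20 (−0.12, adjusted p = 0.021, ZA against vehicle), CDC25B (−0.10, adjusted p = 0.0285, ZA against BITC) and BUB3 (0.0892, adjusted p = 0.0417, ZA against BITC). The differences described here are small against 3 libraries a group, GC and length trends differ between groups, and most counts of calls changed without ZA library 1.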
